A study of Mus musculus with 12 samples.

Results

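Mitochondrial protein import genes were taken as the symbols of the count table that name subunits of the outer membrane translocase (Tomm and a number) or of the inner membrane translocases (Timm and a number), the import motor genes Pam16, Dnajc19, Grpel1 and Grpel2, and the processing peptidase genes Pmpca and Pmpcb. This rule matched 32 of the 26214 symbols, and each of the 32 had at least 1 count. The cells were mLTC-1, a line of immortalized Leydig cells from mouse, the androgen-making cells of the testis. Control cells received the DMSO vehicle and treated cells 100 µM MSNBA, described by the series as a Glut5 fructose transporter inhibitor, each for 24 h. There were 6 control and 6 MSNBA libraries of polyA RNA, all from this 1 line with no genetic change named. Nothing in the labels says that replicates came from separate cultures. The p-values therefore reflect the spread among these 12 libraries alone, and that spread may be technical. Being bulk libraries, they cannot tell fewer cells with a transcript from less of it per cell.

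Most mitochondrial proteins are made in the cytosol and carried in unfolded. They pass the outer membrane through the TOM channel and are then sorted. Proteins with a cleavable presequence go through the inner membrane by the presequence translocase and are pulled in by a motor built around the heat shock protein encoded by Hspa9. Carrier proteins are guided across the intermembrane space by small chaperones and inserted by the carrier translocase, whose channel is encoded by Timm22. In Leydig cells the mitochondrion is also where cholesterol enters steroid synthesis, and the cholesterol side chain enzyme is itself an imported, presequence-bearing protein.

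Library totals ran from 59113 to 657251 counts. The geometric mean depth of the MSNBA libraries was 2.14 times that of the controls (p = 0.0606 by an exact permutation test, two-sided). Counting precision is therefore lower in most controls than in most MSNBA libraries. All 7 Leydig cell markers were detected, with a summed level of 7489.6 to 10905 CPM (counts scaled to a common library total) in controls and 7569 to 9388 CPM in MSNBA. The macrophage, Sertoli, germ, endothelial and fibroblast marker lists each summed to at most 84.6 CPM in any library, and the endothelial list had 1 gene at 0 throughout. Two-sided comparison of treatment used the edgeR quasi-likelihood test over the 2614 genes that passed a low-count filter, and 19 of the 32 import genes passed it. Stress response genes of the Atf4 pathway summed to 5543 CPM in control 2 and 4287 CPM in control 4, against a range of 2000.4 to 2469.8 CPM among the other controls. Their sum in MSNBA was between 3039 and 5089 CPM. The part of that difference in the results below was not tested. In the deposited table the columns of controls 2 and 4 stand beside those of MSNBA 3 and 5, apart from the other 4 controls and the other 4 MSNBA libraries. The labels name 2 groups and were followed, and why the columns stand so is not stated. Values without controls 2 and 4, or without all 4 of these libraries, are given where a sign or an unadjusted call differs.

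The promoters of 4 genes to which the results return are shown first. Windows of 300 bases, from 250 before to 50 after the transcript start, were available from RefSeq (GRCm38.p6, the mm10 assembly) for 28 of the 32 genes. Capitals mark an NRF1 core motif (CGCANGCG) or an ETS motif (CCGGAAG) on either strand. NRF1 is a factor known for its sites in promoters of mitochondrial genes.
Timm22 (chr11:76406675-76406974, plus strand): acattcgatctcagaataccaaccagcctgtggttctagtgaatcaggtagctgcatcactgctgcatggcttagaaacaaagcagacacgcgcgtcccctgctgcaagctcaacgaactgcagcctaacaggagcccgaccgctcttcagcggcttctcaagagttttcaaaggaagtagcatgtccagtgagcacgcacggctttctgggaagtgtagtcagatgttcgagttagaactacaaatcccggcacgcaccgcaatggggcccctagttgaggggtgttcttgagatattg
Pam16 (chr16:4624897-4625196, minus strand): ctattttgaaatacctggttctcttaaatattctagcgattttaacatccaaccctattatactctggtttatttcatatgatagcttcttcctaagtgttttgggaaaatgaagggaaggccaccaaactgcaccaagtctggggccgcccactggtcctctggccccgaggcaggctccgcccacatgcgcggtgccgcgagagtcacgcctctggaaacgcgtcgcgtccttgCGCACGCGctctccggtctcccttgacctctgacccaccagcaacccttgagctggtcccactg
Timm8b (chr9:50603651-50603950, plus strand): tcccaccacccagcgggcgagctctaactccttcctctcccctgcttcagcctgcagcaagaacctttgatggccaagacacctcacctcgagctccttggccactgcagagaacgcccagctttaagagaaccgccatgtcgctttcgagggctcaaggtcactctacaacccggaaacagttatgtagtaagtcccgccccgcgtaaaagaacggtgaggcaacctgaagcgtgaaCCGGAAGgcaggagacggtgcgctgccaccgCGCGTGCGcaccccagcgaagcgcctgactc
Timm13 (chr10:80900920-80901219, minus strand): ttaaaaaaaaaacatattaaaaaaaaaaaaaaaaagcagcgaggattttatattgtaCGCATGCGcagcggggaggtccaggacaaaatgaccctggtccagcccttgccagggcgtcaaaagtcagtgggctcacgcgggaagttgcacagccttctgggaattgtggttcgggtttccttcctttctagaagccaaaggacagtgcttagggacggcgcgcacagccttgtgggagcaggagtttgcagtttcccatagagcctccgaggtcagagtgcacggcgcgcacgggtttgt
The Pam16 and Timm13 windows held the NRF1 letters and the Timm8b window held both motifs. Neither was found in this Timm22 window or in a second one that starts downstream. Dnajc19, to which the results also return, had neither motif either, and its sequence is not shown. Of 8 motifs searched, ETS letters were in 12 of 28 import genes (42.9%), beside 9.93% of the 27025 gene symbols with a window. These 12 were Grpel1, Pmpca, Pmpcb, Timm10, Timm10b, Timm23, Timm29, Timm8a2, Timm8b, Tomm22, Tomm34 and Tomm70a. NRF1 letters were in 6 of 28 (21.4%; Pam16, Timm13, Timm29, Timm50, Timm8b and Tomm20) beside 9.22% of symbols. The other motifs were an SP box (GGGCGG, 50.0% of import genes beside 38.2%), a CCAAT box (CCAAT, 32.1% beside 41.1%), a TATA box (TATAAA, 10.7% beside 15.7%), an E-box (TCACGTG, 7.1% beside 4.29%), a YY1 motif (CAAGATGGC, 3.6% beside 1.42%) and a cAMP response element (TGACGTCA, 0 of 28 beside 2.03%). In the windows shown the NRF1 and ETS letters did not overlap. The 27025 symbols were not limited to genes with counts in these libraries, and expressed genes alone were not compared. A match describes letters only, and so does the choice of motifs. More letter strings than these 8 were tried on the same promoters, among them longer forms of the NRF1, ETS and YY1 motifs and another E-box, the ETS motif was singled out after its share was seen, and the NRF1 letters were shortened after a longer form had been counted in fewer windows.

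No import gene passed the threshold of an adjusted p under 0.05: 0 of 19 by edgeR, where 2 of 2614 tested genes (0.0765%) passed. DESeq2 and limma-voom also called 0 import genes. At an unadjusted p under 0.05, edgeR gave 4 of 19 import genes (21.1%) beside 8.95% of all tested genes. Of these, 3 were higher in MSNBA (Pam16, Dnajc19 and Timm8b) and 1 was lower (Timm13), where 4.17% of all tested genes were higher and 4.78% lower. DESeq2 gave 2 of the 19 (Pam16 and Timm13), beside 6.77% of the 2614 genes, and limma-voom gave 3, beside 9.91%. With library depth as a covariate the count was 0 of 19, beside 8.88%. Percentages that follow are shares of those of the 2614 genes kept in each run. The count was 2 without control 1 (11.5%), 1 without control 2 (9.22%), 2 without control 3 (7.31%) and 1 without control 5 (8.57%). It was 2 without MSNBA 1 (8.28%), 1 without MSNBA 2 (8.42%) and 2 without MSNBA 3 (7.73%). Without controls 2 and 4 it was 3 (Pam16, Dnajc19 and Timm13, beside 9.6%), and without these and MSNBA 3 and 5 it was 1 (Timm13, beside 7.87%). The groups overlapped for each of the 19 genes, whereas 0.65% of all tested genes did not overlap. The median log2 fold change of the 19 was 0.10, against -0.0082 for all tested genes, with 12 of 19 values above 0 (63.2%, beside 48.5% of all tested genes). Among these 12, Timm50 and Tomm5 had a lower median CPM in MSNBA than in controls. Without controls 2 and 4, 17 of 19 values lay above 0 (beside 50.1% of the 2614 genes), without the low-count filter 15 of 19 (beside 70.5%) and with depth as a covariate 10 of 19 (beside 49.9%). Summed over the 31 import genes other than Timm22, the level ran from 3355 to 4038 CPM in MSNBA libraries, a span that held all 6 controls (3492 to 3849 CPM). The lowest of these values was that of MSNBA 4, and the medians were 3599 CPM in controls and 3815 CPM in MSNBA. A difference in this sum was not tested.

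**Figure D1:**
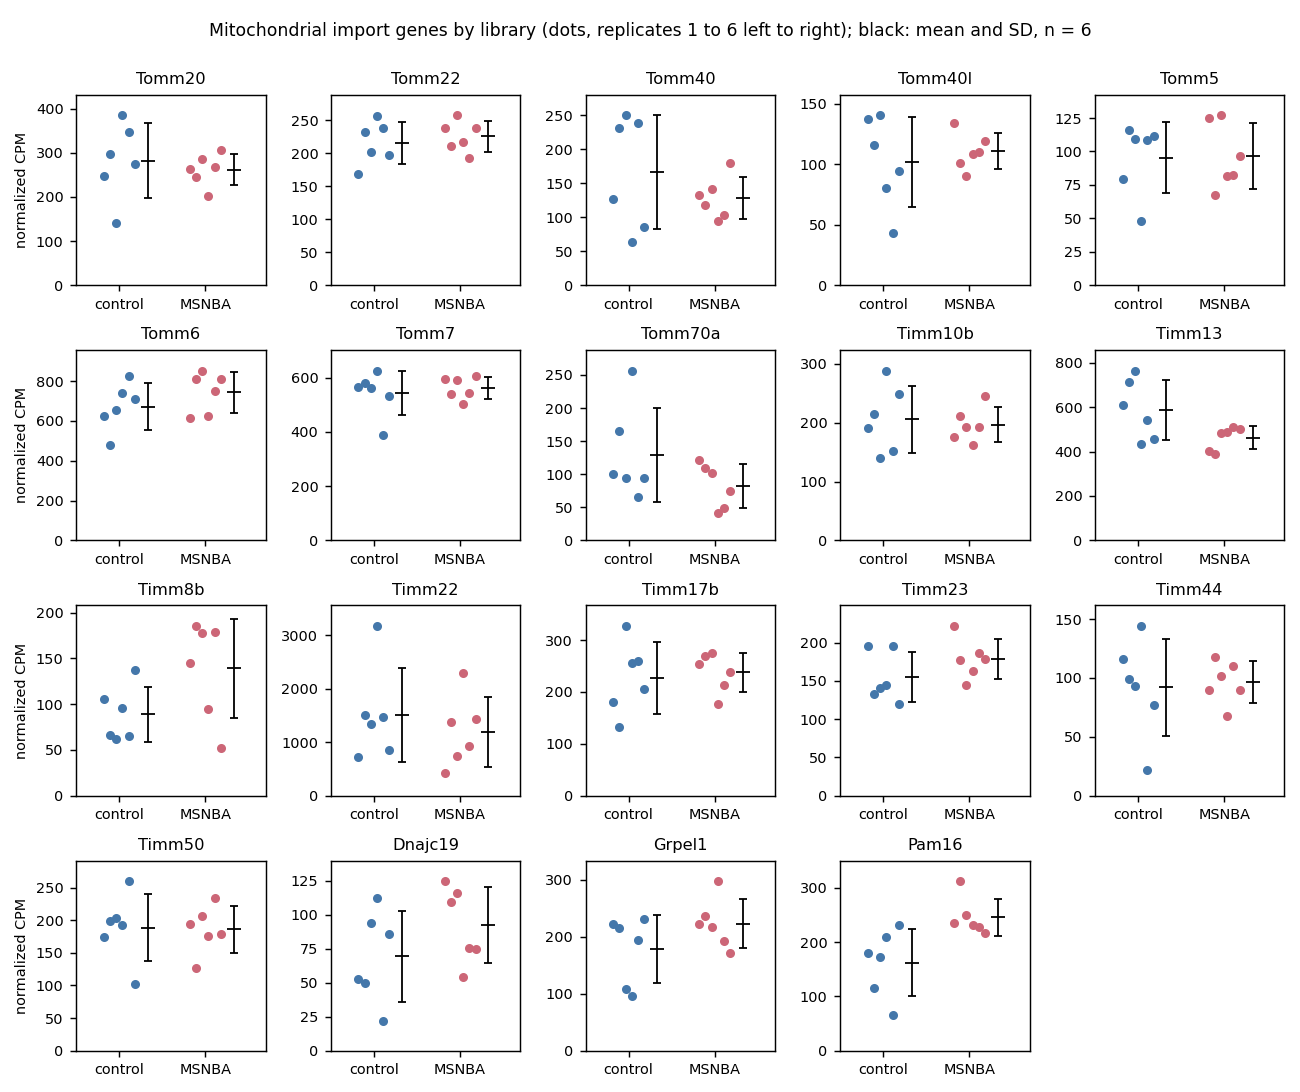
Normalized CPM (vertical axes, starting at 0) of the 19 tested import genes in the 6 control and 6 MSNBA libraries, each dot a library, with mean and SD in black. Pam16 dots of MSNBA begin at 216 CPM, above 5 of 6 controls, and Timm22 reaches 3175 CPM in control 4.

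The import motor held 2 of the 3 genes that were higher at an unadjusted p under 0.05. Pam16 and Dnajc19 encode J-type partners that bind each other at the inner face of the inner membrane and set the ATPase activity of the motor chaperone. Pam16 (chromosome 16, 4616466 to 4624946, mm10) measured 65.0 CPM in its lowest, 176 in its median and 231 in its highest control library, and 216, 233 and 312 CPM in MSNBA. All 6 MSNBA libraries lay above the control median and 3 lay above every control, so that the overlap came from control 6 alone. The lowest control, control 5, held 3 counts of Pam16. The log2 fold change of Pam16 was 0.49 (SE 0.20; edgeR unadjusted p = 0.0179, adjusted p = 0.401), a fold of 1.40 with a 95% interval of 1.06 to 1.85. With 1 library left out it ran from 0.39 without control 5 to 0.62 without control 6, and 11 of 12 runs had an unadjusted p under 0.05. It was 0.48 (SE 0.25; edgeR unadjusted p = 0.0604) without controls 2 and 4 and MSNBA 3 and 5.

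Dnajc19 (chromosome 3, 34057280 to 34081354) measured 21.7, 69.3 and 112 CPM at the lowest, median and highest control, and 54.2, 92.7 and 125 CPM in MSNBA. MSNBA 1 and 3 lay above all controls, and the lowest control was control 5, the shallowest library. Counts of Dnajc19 were 10, 3, 6, 7, 1 and 10 in controls 1 to 6, and 4 in MSNBA 4, the lowest MSNBA library. The log2 fold change of Dnajc19 was 0.57 (SE 0.28; edgeR unadjusted p = 0.0485, adjusted p = 0.545). It was 0.29 (SE 0.34) with library depth as a covariate, and ran from 0.41 without control 1 to 0.70 without control 4. Without controls 2 and 4 and MSNBA 3 and 5 it was 0.66 (SE 0.35; edgeR unadjusted p = 0.0669). Grpel1, the nucleotide exchange factor that resets the motor chaperone, measured 96.2, 205 and 231 CPM in controls and 171, 219.8 and 298 CPM in MSNBA. Its log2 fold change was 0.21 (SE 0.20), with a fold interval of 0.874 to 1.53. Grpel2, its paralog, had 6 counts over the controls and 13 over the MSNBA libraries, too few to be tested. Summed over the 4 motor genes, the level ran from 219.9 to 447 CPM in controls (median 331) and from 372 to 524 CPM in MSNBA (median 473). The motor chaperone itself lies outside the rule: Hspa9 measured 405, 583 and 711 CPM in controls and 596, 732 and 871 CPM in MSNBA, with a log2 fold change of 0.42 (SE 0.14; edgeR unadjusted p = 0.00425, adjusted p = 0.249).

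**Figure D2:**
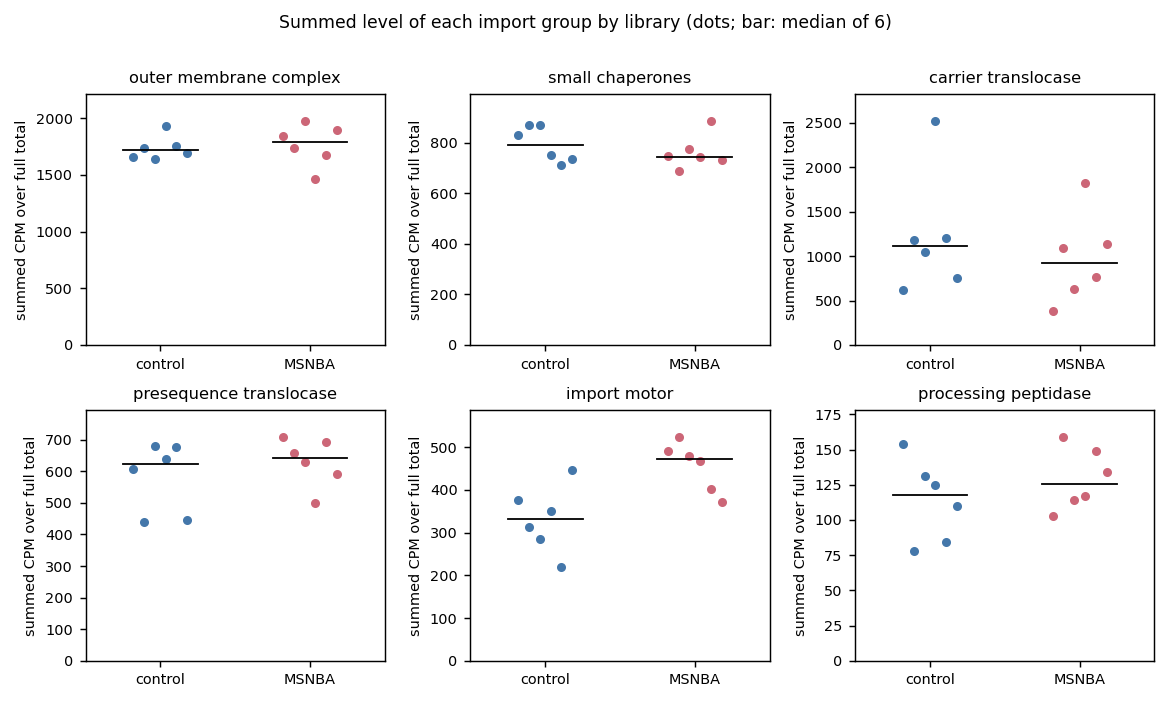
Summed CPM over full library totals (vertical axes, starting at 0) of 6 functional groups of import genes, each dot a library and each bar the median of 6. The motor median was 331 CPM among controls, below the 473 CPM of MSNBA. The outer membrane complex ran from 1643 to 1931 CPM in controls and from 1465 to 1974 CPM in MSNBA.

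Of the small chaperones of the intermembrane space, Timm8b was higher in MSNBA and Timm13 lower, each before adjustment only. Timm8b encodes a relative of the Tim8 protein that pairs with Timm13 in a ring that shields hydrophobic precursors. Timm8b (chromosome 9, 50603901 to 50605320) measured 62.4, 81.2 and 137 CPM in controls and 52.2, 161 and 186 CPM in MSNBA. In MSNBA, 4 libraries lay above all controls and 1, MSNBA 6, lay below all of them. Counts of Timm8b were 20, 4, 4, 6, 3 and 16 in controls 1 to 6, and 7 in MSNBA 6. The log2 fold change of Timm8b was 0.58 (SE 0.27; edgeR unadjusted p = 0.036, adjusted p = 0.489), and 5 of 12 runs with a library left out had an unadjusted p under 0.05. It was 0.51 (SE 0.29; edgeR unadjusted p = 0.0873) without controls 2 and 4, and 0.31 (SE 0.32; edgeR unadjusted p = 0.331) when MSNBA 3 and 5 were left out too. Timm13 (chromosome 10, 80899450 to 80900969) measured 433, 575 and 764 CPM in controls and 388, 485 and 509 CPM in MSNBA. All 6 MSNBA libraries of Timm13 lay under the control median and 2 lay under every control. Its log2 fold change was -0.34 (SE 0.15; edgeR unadjusted p = 0.0239, adjusted p = 0.443), a fold of 0.788 with a 95% interval of 0.642 to 0.967. With library depth as a covariate the log2 values were 0.39 (SE 0.31) for Timm8b and -0.27 (SE 0.16) for Timm13, and without the low-count filter that of Timm13 was -0.19. In that setting the 2614 genes had a median of 0.14.

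As 1 of 3 ratios between partner genes that were computed after these values were seen, the count of Timm8b over that of Timm13 was 0.170 pooled over the controls and 0.330 pooled over the MSNBA libraries. By library it ran from 0.0816 to 0.302 in controls (median 0.147) and from 0.104 to 0.478 in MSNBA (median 0.355). Controls 2, 3 and 5, with the lowest ratios among controls, held 4, 4 and 3 counts of Timm8b. MSNBA 1, 2, 3 and 5 lay above all controls, while MSNBA 4 at 0.194 and MSNBA 6 at 0.104 lay within the control range. Timm8a1 is the other Tim8 gene, and in humans it is mutated in a deafness and dystonia syndrome. It had 23 counts in controls and 88 in MSNBA, 36 of them in MSNBA 1. Its pooled level was 33.8 CPM (95% exact Poisson interval 21.5 to 50.8) and 55.1 CPM (44.2 to 67.8), and fitted with the scaling of the filtered genes its log2 fold change was 0.67 (SE 0.36; edgeR unadjusted p = 0.0597). Timm9 and Timm10, which form the ring for carrier precursors, had 8 and 29, and 34 and 88, counts in controls and MSNBA. Timm10b, which docks that ring on the carrier translocase, measured 140.4, 203 and 289 CPM in controls and 163, 192 and 246 CPM in MSNBA, a log2 fold change of -0.094 (SE 0.19) whose sign turned without the low-count filter and without controls 2 and 4. Timm8a2 had 2 counts in controls and 0 in MSNBA, and 3 counts, the floor used here, equal 4.41 CPM in the pooled controls and 1.88 CPM in the pooled MSNBA libraries. Intervals and floors cover counting error only.

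**Figure D3:**
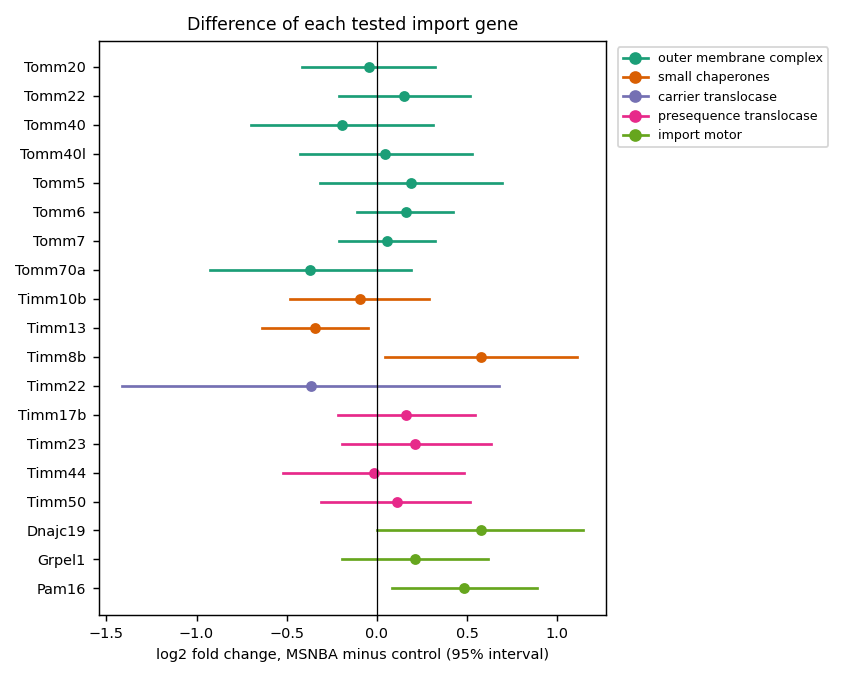
Log2 fold change, MSNBA minus control, of the 19 tested import genes (dots) with 95% intervals (lines), colored by functional group. The interval of Timm22 is the widest, from 0.375-fold to 1.60-fold. Those of Pam16, Timm8b and Timm13 lie to one side of 0 before any adjustment, and that of Dnajc19 begins at 1-fold after rounding.

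Timm22 (chromosome 11, 76406925 to 76416313, plus strand) had the largest coefficient of variation of the 19 tested import genes in each group. Its normalized level was 729.9, 1407 and 3175 CPM at the lowest, median and highest control and 424, 1152 and 2290.3 CPM in MSNBA. Control 4 and MSNBA 4 were the highest of their groups, and MSNBA 1, the deepest library, was the lowest of all. The log2 fold change of Timm22 was -0.37 (SE 0.47; edgeR adjusted p = 0.861), with a fold interval of 0.375 to 1.60. It was -0.0018 without control 4, 0.11 without controls 2 and 4 and 0.48 (SE 0.28) with library depth as a covariate, so no direction is given for it.

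Counts of Timm22 followed depth only in part, and the measures of this used below were chosen after those counts were seen. They were 138, 91, 86, 198, 68 and 99 in controls 1 to 6 and 231, 162, 204, 169, 136 and 191 in MSNBA 1 to 6. The deepest library held 11.1-fold as many counts in all as the shallowest, yet the highest Timm22 count was 3.40-fold the lowest. A gene whose share of a library is constant has a slope of 1 when its log2 count is set against the log2 library total. That slope was 0.375 (SE 0.134) for Timm22, the fourth lowest of 2614 tested genes, whose median was 1.02 and whose 5th and 95th percentiles were 0.732 and 1.26. The other 18 import genes had slopes from 0.883 for Tomm40 to 1.35 for Timm8b, with a median of 1.08. Timm22 took 8.14% of all import gene counts in MSNBA 1 and 39.2% in control 4.

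Over full library totals, the log2 CPM of Timm22 was lower in deeper libraries (Pearson r = -0.83, Spearman rho = -0.81 with log2 depth over 12 libraries). These values are a description and carry no test, because the relation was chosen for this gene after its counts were seen, and because the library total is the denominator of CPM. Without MSNBA 1 and control 5, the libraries farthest from the median depth, r was -0.78 and rho -0.76. Within the 6 MSNBA libraries r was -0.97 and rho -0.94, and within the 6 controls r was -0.72 and rho -0.77. With 1 library left out the slope of Timm22 ran from 0.294 to 0.454.

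**Figure D4:**
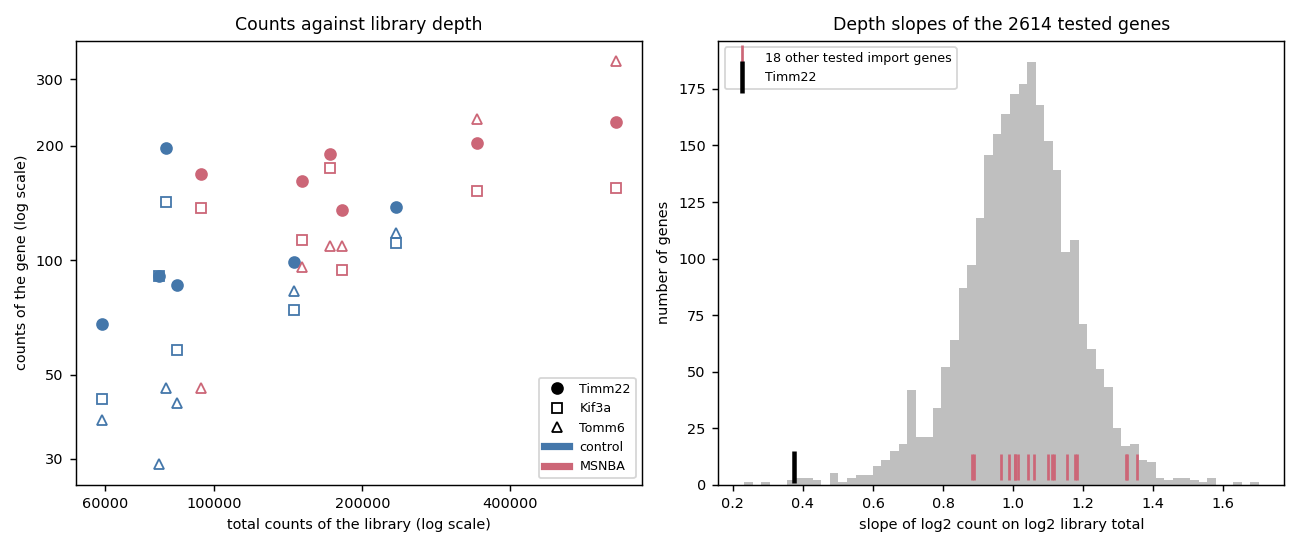
Left, counts of Timm22, Tomm6 and Kif3a in each library against the library total (both axes logarithmic, blue control, red MSNBA). Right, number of the 2614 tested genes by slope of log2 count on log2 library total, with the 19 import genes as marks above the axis: Timm22 at 0.375 stands apart from the other 18, which span 0.883 to 1.35.

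Genes outside the import machinery shared this pattern, and they were picked after their values were seen. The slopes lower than that of Timm22 were those of Alb (0.232), Tlcd5 (0.305) and Kif3a (0.355). Among 2613 other tested genes, the log2 CPM of Kif3a, which encodes a kinesin motor of intracellular transport, was the most like that of Timm22 over the 12 libraries (r = 0.97, given without a test because Kif3a was chosen for it and both follow depth). Kif3a had between 0.632 and 1.00 counts for each count of Timm22 in every library, with a median of 0.731. Like Timm22, it was highest in control 4 (2277 CPM, against 587 to 1506 CPM in the other controls) and in MSNBA 4 (1857 CPM, against 284 to 1305 CPM). The highest such r of another import gene was 0.27, for Tomm22, and the median over 18 was -0.098. GENCODE M21 placed no other gene on either strand over Timm22, and none of its transcripts had a copy in another gene at 95% identity over 200 bases. What sets the pattern was not tested.

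Pam16, Dnajc19 and Timm8b lay at the other end of this scale, with slopes of 1.32, 1.32 and 1.35, all above the 95th percentile of tested genes, and Timm13 had a slope of 0.889. Depth was itself higher in MSNBA, so treatment and depth can be told apart only in part. With depth as a covariate, the log2 value of Pam16 was 0.44 (SE 0.23; edgeR unadjusted p = 0.0605).

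In the outer membrane complex, 0 of 8 tested genes had an unadjusted p under 0.05 by edgeR, beside 8.95% of all tested genes. Tomm20, Tomm22 and Tomm70a encode receptors that bind precursors, Tomm40 the channel, and Tomm5, Tomm6 and Tomm7 small subunits that hold the channel together. Tomm6, the complex member with the most counts (1286), measured 479.8, 683 and 823 CPM in controls and 615, 780.2 and 852 CPM in MSNBA, a log2 fold change of 0.16 (SE 0.13) with a fold interval of 0.928 to 1.34. Tomm7 measured 390, 564 and 625 CPM in controls and 501, 567 and 604 CPM in MSNBA, with a fold interval of 0.863 to 1.25. The channel gene Tomm40 measured 64.1, 179 and 249.5 CPM in controls and 94.9, 125 and 179 CPM in MSNBA, with 0 MSNBA libraries above the control median and a log2 fold change of -0.19 (SE 0.25). Tomm40l, a paralog of the channel, had a log2 fold change of 0.049 (SE 0.24).

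Among the receptors, Tomm70a, which receives carrier precursors from cytosolic chaperones, measured 65.0, 97.4 and 257 CPM in controls and 40.7, 88.0 and 121 CPM in MSNBA. For Tomm70a the lowest library of each group, control 5 and MSNBA 4, held 3 counts. Its log2 fold change was -0.37 (SE 0.27; edgeR unadjusted p = 0.186), which became -0.13 without control 4, its highest library, and 0.023 without controls 2 and 4. The value was -0.59 without MSNBA 1 and -0.60 (SE 0.32; edgeR unadjusted p = 0.0667) with library depth as a covariate. The log2 value was -0.046 (SE 0.18) for Tomm20, 0.15 (SE 0.18) for Tomm22 and 0.19 (SE 0.25) for Tomm5. The value of Tomm20 turned to 0.10 without the low-count filter and to 0.096 without controls 2 and 4. For Tomm5 the median was 109 CPM in controls and 89.8 CPM in MSNBA, although its log2 value was above 0. Tomm34, a cytosolic cochaperone, had 13 and 36 counts in controls and MSNBA, Tomm20l had 2 and 1, and Tomm6os, an antisense RNA at the Tomm6 locus that the rule also matched, had 4 and 13.

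The presequence translocase likewise overlapped between groups. Timm23 encodes its channel, Timm17b a partner of the channel, Timm50 the receptor that meets the presequence, and Timm44 the tether of the motor. Timm17b, with the most counts of this group (437), measured 132, 231 and 328 CPM in controls and 176, 246 and 276 CPM in MSNBA, a log2 fold change of 0.17 (SE 0.19). The channel gene Timm23 measured 120, 142 and 196 CPM in controls and 145, 178 and 222 CPM in MSNBA. All 6 MSNBA libraries of Timm23 lay above the control median, with a log2 fold change of 0.22 (SE 0.20) and a fold interval of 0.875 to 1.55. Timm50 had a log2 value of 0.10 (SE 0.21), although its median was 195 CPM in controls and 187 CPM in MSNBA. The log2 value of Timm44 was -0.015 (SE 0.25), and its sign turned in 10 of 22 alternatives, among them that without controls 2 and 4 (0.10). The level of Timm44 was 21.7, 96.4 and 144 CPM in controls and 67.8, 95.7 and 118 CPM in MSNBA. Its lowest control, control 5, held 1 count. Counts of Pam16 over those of Timm44 had a median of 1.69 in controls and 2.54 in MSNBA, and were 1.79 and 2.52 when pooled. Those of Dnajc19 over Timm44 had a median of 0.889 and 0.881, but were 0.698 and 1.11 when pooled. Of the counts pooled over MSNBA, MSNBA 1 held 68 of 138 for Dnajc19 and 49 of 124 for Timm44. These ratios, too, were chosen after values were seen, and a difference between the genes was not tested. Timm17a had 34 and 95 counts and Timm21 had 7 and 20 counts in controls and MSNBA.

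Among genes too shallow to be tested, the processing peptidase was represented by Pmpca (37 and 106 counts in controls and MSNBA) and Pmpcb (47 and 86). Pooled levels were 54.4 CPM (95% exact Poisson interval 38.3 to 75.0) and 66.3 CPM (54.3 to 80.2) for Pmpca, and 69.2 CPM (50.8 to 92.0) and 53.8 CPM (43.0 to 66.5) for Pmpcb, which cuts the presequence off. These intervals overlapped for each subunit. Timm29, a metazoan subunit of the carrier translocase, had 25 and 46 counts, at 36.8 CPM (23.8 to 54.3) and 28.8 CPM (21.1 to 38.4). Fitted over all genes with a count, 0 of the 13 untested import genes passed an adjusted p of 0.05 by edgeR, where 9 of 19576 genes passed. An unadjusted p under 0.05 was found for 1, Timm8a2 with its 2 counts. In this fit 10.4% of the 2614 filtered genes were under 0.05, and the share over genes as shallow as these 13 was not computed.

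Spread among control libraries exceeded that among MSNBA libraries for 18 of the 19 tested import genes. The same count was not made over all tested genes, so it is not given as particular to import genes. In controls the coefficient of variation ran from 14.8% for Tomm22 to 58.0% for Timm22, and in MSNBA from 7.17% for Tomm7 to 54.8% for Timm22, with Timm8b as the exception (33.6% and 39.1%). Most controls were shallower, and the part of depth in this spread was not tested.

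The wider import and sorting pathway, 26 genes outside the rule, had 15 tested genes. An adjusted p of 0.05 was passed by 0 of them by edgeR, DESeq2 or limma-voom, 2 were higher at an unadjusted p under 0.05 (13.3%, beside 8.95% of all tested genes) and 0 lower, and 12 of 15 values lay above 0. Besides Hspa9, the other was Hspe1, the cochaperonin that folds imported proteins with the Hspd1 product. Hspe1 measured 364, 433 and 497 CPM in controls and 506, 543 and 640 CPM in MSNBA, a log2 fold change of 0.36 (SE 0.14; edgeR unadjusted p = 0.0106, adjusted p = 0.373). Its groups did not overlap, as for 0.65% of all tested genes. The depth slopes of Hspa9 and Hspe1 were 1.21 and 1.19, above the median of 1.02 of tested genes. Their values with depth as a covariate or with libraries left out are not given here. Hspd1 itself had a log2 value of 0.017 (SE 0.13). For comparison with other nuclear genes of the mitochondrion, 45 of 78 mitochondrial ribosomal protein genes were tested, with a median of 0.080 and 4.44% at an unadjusted p under 0.05. For complex I, 37 of 50 symbols were tested, with a median of 0.011 and 5.41%. A difference between these groups and the import genes was not tested.

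Near-identical copies and overlapping genes may limit some of these values. By sequence comparison with GENCODE M21 transcripts, 8 of the 19 tested genes matched another annotated gene at 95% identity over at least 200 bases. Timm23 had 6 such matches and Tomm20 had 4, and Pam16 and Dnajc19 had 1 each. The only match of Timm10b was Gm45799 and that of Tomm6 was Gm21981. Each of these overlaps the import gene itself on the same strand, so it is not a copy elsewhere. On the opposite strand, 12 of the 19 overlapped another gene, among them Pam16 with Glis2, Dnajc19 with Fxr1, Timm8b with Nkapd1 and Timm13 with Tmprss9. The sources used here do not state whether counting used strand, so it is not known whether reads of such pairs were told apart.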

How the data were processed

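RNA from 12 libraries was analysed, 6 per group by the labels. The authors deposited 1 table of raw counts per gene symbol, without normalization. BWA 0.7.4.4 and mm10 come from the submitters' processing notes. The table's name points to counts of unique molecular identifiers on RefSeq genes, which no label states. Neither the program that counted reads nor its strand setting is stated in those sources. Totals ran from 59113 to 657251 counts, which limits genes of few counts. With R 4.3.3, edgeR 4.0.16 (filterByExpr, TMM, robust quasi-likelihood F test, Benjamini-Hochberg over 2614 genes), log2 fold changes were fitted as MSNBA minus control. Normalized CPM of tested genes are over tested counts with TMM factors, whereas summed and pooled CPM are over full totals. The fit was tested on simulated data. Alternatives were limma 3.58.1 voom, DESeq2 1.42.0, other scaling and filters, a replicate block, depth as a covariate and libraries left out. Copies were searched with BLAST 2.17.0, and depth slopes used log2 of count plus 0.5. Same-group libraries differed beyond counting noise in 30 of 30 pairs (chi-square over degrees of freedom of at least 1.21). All 32 import genes are accounted for. Ranges are given for Timm22, genes at an unadjusted p under 0.05 and the most counted gene of each role, with others added after values were seen. Members and lists were chosen with earlier results of these data known, as was leaving out controls 2 and 4. Leaving out MSNBA 3 and 5 as well was chosen after seeing the data.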

Additional observations from a re-analysis of the deposited data

Results flagged for a closer look

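Of 38 groups of 6 libraries examined, for 19 import genes in each of the 2 groups, 2 held a library far from the other 5, where chance gives 1.9. In control 4, Timm22 stood at 3175 CPM, above a next highest value of 1506 CPM among controls. In MSNBA 2, Pam16 stood at 312 CPM, above a next highest value of 250.2 CPM in that group. Without MSNBA 2, the log2 fold change of Pam16 was 0.43 (SE 0.20).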

How the results depend on the processing

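Import genes past the adjusted threshold numbered 0 in all 11 alternatives and 0 in each of 12 runs with a library left out. Over all genes, the 2 calls became 0 by DESeq2, by limma-voom and with depth as a covariate, 15 without the low-count filter, 9 without that filter but with the scaling of the filtered genes (added after the data were seen), 1 with 20 counts in 6 libraries required and 7 without controls 2 and 4. They ranged from 0 to 5 with a library left out. The 4 import genes at an unadjusted p under 0.05 became 2 by DESeq2 (beside 6.77% of the 2614 genes) and 0 with depth as a covariate (8.88%). The stricter filter kept 11 of the 19 and gave 2, beside 11.8% of the 1319 genes it kept. The number was 1 (Timm13, beside 7.87%) without controls 2 and 4 and MSNBA 3 and 5, and ranged from 1 to 4 with a library left out. The median log2 fold change ran from 0.038 to 0.18 with a library left out and was 0.25 without the low-count filter, where the 2614 genes had a median of 0.14. With the replicate block, 3 genes and 0 import genes passed and 3 import genes were under 0.05 unadjusted: Pam16 (0.51), Timm13 (-0.36) and, not in the unblocked fit, Timm22 (-0.36, SE 0.16), while Dnajc19 (0.56) and Timm8b (0.49) were above it. The edgeR unadjusted p-values of Timm22, Dnajc19 and Timm8b were 0.0419, 0.0597 and 0.085, in a fit where 10.2% of the 2614 genes were under 0.05. Same-number correlations passed 0.1 in 3 of 6 pairs, from -0.23 to 0.48, and 2 of 6 controls matched their own number best. These values cannot settle whether replicate numbers pair the samples. Signs turned for Timm44 by DESeq2 (0.024), limma-voom (0.076), without the low-count filter (0.13) and without controls 2 and 4 (0.10). Without that filter they turned for Timm10b (0.052) and Tomm20 (0.10), and without controls 2 and 4 for Timm10b (0.018), Timm22 (0.11), Tomm20 (0.096) and Tomm70a (0.023), and when MSNBA 3 and 5 were left out too the same 5 genes turned: Timm10b (0.035), Timm22 (0.32), Timm44 (0.045), Tomm20 (0.055) and Tomm70a (0.11). With depth as a covariate they turned for Timm22 (0.48), Tomm40l (-0.17), Tomm5 (-0.052) and Tomm7 (-0.018). With a library left out, values spanned -0.13 to 0.11 for Timm44, -0.16 to 0.05 for Tomm20, -0.084 to 0.22 for Tomm40l, -0.0054 to 0.088 for Tomm7 and -0.057 to 0.18 for Timm50. The cause was not tested, except that a stricter filter tests fewer genes. Depth limits genes with few counts, so that 13 of the 32 could not be tested.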
